A study of Mus musculus with 8 samples.

Results

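Transcripts of 9 genes of innate inflammation were examined in the white adipose tissue of mice that lacked Sel1l in adipocytes. The genes were chosen by name, with no threshold on their values. They are the cytokines Tnf, Il6 and Il1b, the interleukin-1 receptor antagonist Il1rn, the sensors Nlrp3, Tlr2 and Tlr4, the feedback inhibitor Socs3 and the prostaglandin-forming enzyme Ptgs2. All 9 were measured, among 18820 genes on each array, and each was read from its single-gene probe set with the highest mean over the 8 arrays. The Sel1l-/- group held 4 male mice with floxed Sel1l alleles and a Cre recombinase under the adiponectin promoter, and the WT group held 4 wildtype males. All 8 mice were of a mixed C57BL/6N and C57BL/6J background and had eaten the high fat diet D12492 for 5 weeks. The labels do not say whether WT mice carried floxed alleles, how old the mice were or which fat depot was taken. The Cre acts in adipocytes, and the other cells of the tissue are not its target. RNA of whole tissue was measured with 1 array a mouse.

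Toll-like receptors and NLRP3 detect microbial and tissue-derived danger signals. Toll-like receptors switch on NF-κB, which raises the transcripts of Tnf, Il6, Il1b, Nlrp3 and Ptgs2, and the NLRP3 inflammasome then activates caspase-1, which cuts the interleukin-1β precursor into its secreted form. Il1rn and Socs3 act as brakes, the first by occupying the interleukin-1 receptor and the second by blocking JAK-STAT3 signalling. In obese fat, macrophages are a main source of Tnf, Il1b and Il1rn, while adipocytes and stromal cells also express Tlr4, Il6, Socs3 and Ptgs2. Sel1l itself is the adapter of the Hrd1 ubiquitin ligase, which clears misfolded proteins from the endoplasmic reticulum (ER).

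Values are log2 intensities, and differences are Sel1l-/- minus WT, tested with limma and adjusted over all 18820 genes. With 4 arrays a group, precision is limited by their number. Of all genes, 195 were higher and 129 lower at an adjusted p under 0.05, so 1.72% passed. Mouse numbers are the replicate numbers in the titles, not the numbers in the mouse codes of the labels. With the mouse number as a block, these counts were 358 and 367 (3.85% of all genes), and with each array's median set to a common value 119 and 154. Sel1l read 9.56, 9.78, 9.72 and 10.07 in Sel1l-/- mice 1 to 4, against 10.48, 10.57, 10.58 and 10.65 in WT mice 1 to 4 (difference -0.79, standard error 0.10, limma adjusted p = 0.0109), and this call was lost with either part of the mouse codes in the labels as a block and without moderation. The mean of 8 adipocyte markers, among them Adipoq and Plin1, was 12.24 to 12.62 in Sel1l-/- and 12.54 to 12.78 in WT mice, above the upper quartile of each array (8.46 to 8.47 in Sel1l-/- and 8.44 to 8.46 in WT mice). The labels do not say that the mice came from separate litters or days, so p-values measure the spread between these 8 mice.

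None of the 9 genes passed the threshold, where 1.04% of all genes were higher and 0.685% lower. At an unadjusted limma p under 0.05 there were 2 of 9, Ptgs2 and Tlr2, against 15.0% of all genes. The arrays of the genotypes overlapped for each of the 9 genes, where 10.3% of all genes had no overlap. The difference was positive for 5 genes (48.8% of all genes) and negative for 4, and ran from -0.69 for Ptgs2 to 0.83 for Il1rn, with a median of 0.03 against 0.00 over all genes. None of the 181 fits of these genes in 21 other settings passed either, and their lowest limma adjusted p was 0.0519.

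**Figure D1:**
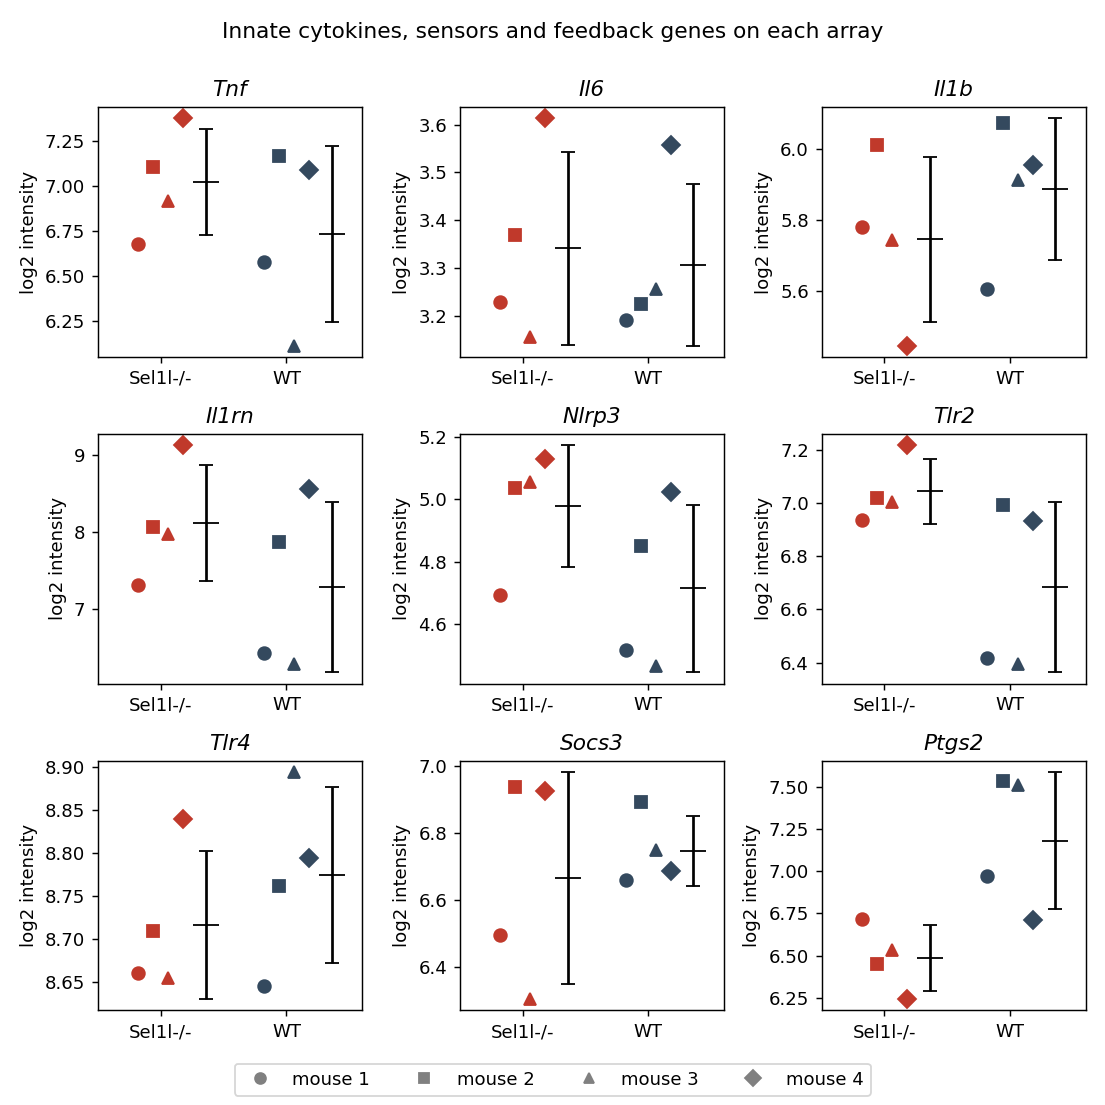
Log2 intensity (vertical axis, a separate range in each panel) of the 9 genes in Sel1l-/- (red) and WT (dark blue) mice. Each symbol is 1 mouse, its shape gives the mouse number, and the black bars give mean and SD (n = 4 each). The genotypes overlap in every panel, and for Ptgs2 the overlap is between Sel1l-/- mouse 1 at 6.72 and WT mouse 4 at 6.71.

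Tlr2, the receptor of bacterial lipoproteins, read 6.94, 7.02, 7.0 and 7.22 in Sel1l-/- mice 1 to 4, against 6.42, 6.99, 6.40 and 6.93 in WT mice 1 to 4. WT mice 1 and 3 were low, WT mouse 2 lay within the Sel1l-/- values and WT mouse 4 just below them. The means were 7.04 ± 0.12 in Sel1l-/- and 6.68 ± 0.32 in WT mice (SD, n = 4 each). The difference of 0.36 (standard error 0.15, 95% interval 0.02 to 0.70) did not pass the threshold (limma adjusted p = 0.312). Tlr1 and Tlr6, the receptors that pair with Tlr2 on the cell surface, were picked out after their values were seen and had differences of 0.69 (adjusted p = 0.394) and 0.50 (limma adjusted p = 0.503). With the mouse number as a block the adjusted p of Tlr1 was 0.0493, and with the code letter as a block its sign turned.

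The promoter of Tlr2 is shown because 3 of the 8 genes with a RefSeq promoter window, Tlr2, Il6 and Nlrp3, carried a match to the NF-κB consensus. These windows run from 250 bases before to 50 bases after an annotated start. The 8 genes, all of the 9 but Tlr4, had 11 different starts. Both strands were searched, and 3 of these 11 windows held such a match, against 8.46% of the 32851 windows of all genes. The window of Tlr2 lies at chr3:83841559-83841858 on the minus strand of GRCm38.p6, and capitals mark the matches, of which the first is a pair that overlaps from position -173 to -163 relative to the start.
Tlr2: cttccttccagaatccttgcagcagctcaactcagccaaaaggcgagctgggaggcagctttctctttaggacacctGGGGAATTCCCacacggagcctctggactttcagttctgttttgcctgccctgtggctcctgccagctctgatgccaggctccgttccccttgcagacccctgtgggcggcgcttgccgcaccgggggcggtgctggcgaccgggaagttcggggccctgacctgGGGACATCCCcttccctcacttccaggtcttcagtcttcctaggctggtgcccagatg

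Tlr4, the receptor of bacterial lipopolysaccharide, read 8.66, 8.71, 8.66 and 8.84 in Sel1l-/- mice 1 to 4, against 8.65, 8.76, 8.89 and 8.79 in WT mice 1 to 4. The values of the genotypes were interleaved. The difference of -0.06 had the narrowest 95% interval of the 9 genes, -0.22 to 0.11 (standard error 0.07, limma adjusted p = 0.773), which covers folds of 0.857 to 1.08.

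Nlrp3, the sensor of the inflammasome, read 4.69, 5.04, 5.05 and 5.13 in Sel1l-/- mice 1 to 4, against 4.52, 4.85, 4.47 and 5.03 in WT mice 1 to 4. Sel1l-/- mouse 1 lay among the WT values, and WT mice 2 and 4 among the Sel1l-/- values. The difference was 0.26 (standard error 0.15, limma adjusted p = 0.459), and each Sel1l-/- mouse was above the WT mouse of the same number, by 0.11 to 0.59.

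Il1b, which encodes the interleukin-1β precursor, read 5.78, 6.01, 5.75 and 5.45 in Sel1l-/- mice 1 to 4, against 5.61, 6.07, 5.91 and 5.96 in WT mice 1 to 4. The lowest value was that of Sel1l-/- mouse 4, which had the highest Il1rn, Tnf, Tlr2 and Nlrp3 of all 8 mice. The difference was -0.14 (standard error 0.14, 95% interval -0.45 to 0.17, limma adjusted p = 0.695), and it was -0.041 without Sel1l-/- mouse 4, -0.079 without WT mouse 2 and -0.23 without WT mouse 1.

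Il1rn had the widest spread of the 9 genes. It read 7.31, 8.06, 7.97 and 9.13 in Sel1l-/- mice 1 to 4, against 6.42, 7.87, 6.29 and 8.56 in WT mice 1 to 4. WT mice 2 and 4 lay within the Sel1l-/- values and WT mice 1 and 3 below them all. The means were 8.12 ± 0.76 in Sel1l-/- and 7.29 ± 1.11 in WT mice (SD, n = 4 each), and the pooled SD of 0.95 lay at percentile 99.7 of all genes. The difference of 0.83, a 1.78-fold level, had a 95% interval of -0.45 to 2.11 (standard error 0.56, limma adjusted p = 0.553). It was 0.49 without Sel1l-/- mouse 4, 0.54 without WT mouse 1, 0.50 without WT mouse 3 and 1.26 without WT mouse 4. Each Sel1l-/- mouse was above the WT mouse of its number, by 0.19 to 1.68. The limma adjusted p was 0.102 with the mouse number as a block and 0.717 with the code number as a block. The promoter of Il1rn is shown as that of the gene with the largest difference, at the most upstream of its 3 annotated starts, chr2:24336610-24336909 on the plus strand of GRCm38.p6. Capitals mark a match to the AP-1 motif TGANTCA, which 7.81% of all windows held on either strand and which Il6 also held.
Il1rn: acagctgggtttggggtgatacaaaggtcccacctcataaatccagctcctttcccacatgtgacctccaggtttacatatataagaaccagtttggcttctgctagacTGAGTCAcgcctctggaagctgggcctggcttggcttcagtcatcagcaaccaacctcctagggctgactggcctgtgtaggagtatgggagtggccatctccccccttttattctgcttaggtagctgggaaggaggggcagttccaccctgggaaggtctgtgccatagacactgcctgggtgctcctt

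Tnf, the cytokine that impairs insulin signalling in adipocytes, read 6.68, 7.11, 6.92 and 7.38 in Sel1l-/- mice 1 to 4, against 6.57, 7.16, 6.11 and 7.09 in WT mice 1 to 4. The low value of WT mouse 3 made the pair numbered 3 differ by 0.81, while the pair numbered 2 differed by -0.06. The difference of the means was 0.29 (standard error 0.24, 95% interval -0.27 to 0.84, limma adjusted p = 0.650), and it was 0.079 without WT mouse 3, 0.17 without Sel1l-/- mouse 4 and 0.43 without WT mouse 2.

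Il6, a cytokine that acts through JAK-STAT3, read 3.23, 3.37, 3.15 and 3.61 in Sel1l-/- mice 1 to 4, against 3.19, 3.22, 3.26 and 3.56 in WT mice 1 to 4. On each of the 8 arrays more than 3 in 4 probe sets were brighter (the lower quartile was 4.34 to 4.37 in Sel1l-/- and 4.33 to 4.36 in WT mice), so a level of Il6 above background is not shown. The difference was 0.03 (standard error 0.12, limma adjusted p = 0.928) and its sign turned after median centring of the arrays (-0.0074). The other 8 genes lay above that quartile on every array, but Nlrp3, at 4.47 to 5.13, was close to it. The promoter of Il6 is shown because it held matches to 3 of the 4 motifs searched, the most of the 8 genes. In chr5:30012864-30013163, on the plus strand of GRCm38.p6, capitals mark in turn the AP-1 motif, the cyclic AMP response motif TGACGT on the opposite strand (7.51% of all windows) and the NF-κB consensus from position -44 to -35.
Il6: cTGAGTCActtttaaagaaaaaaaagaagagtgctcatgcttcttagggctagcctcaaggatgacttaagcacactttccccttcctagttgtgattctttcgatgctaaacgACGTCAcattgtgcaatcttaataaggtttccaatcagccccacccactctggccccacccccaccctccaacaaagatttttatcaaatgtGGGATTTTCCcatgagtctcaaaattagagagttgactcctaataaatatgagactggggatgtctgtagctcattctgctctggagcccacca

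Socs3, the inhibitor induced by STAT3, read 6.50, 6.94, 6.31 and 6.92 in Sel1l-/- mice 1 to 4, against 6.66, 6.89, 6.75 and 6.69 in WT mice 1 to 4. The Sel1l-/- values lay on both sides of the WT values, with SDs of 0.32 in Sel1l-/- and 0.10 in WT mice (n = 4 each). The difference was -0.08 (standard error 0.15, limma adjusted p = 0.849), and it was -0.04 for the dimmer probe set of the gene (adjusted p = 0.939 with all single-gene probe sets tested). The promoter window of Socs3 was the only one of the 11 with a match to the STAT motif TTCNNNGAA, which 8.30% of all windows held.

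Ptgs2, the inducible cyclooxygenase, had the smallest p of the 9 genes. It read 6.72, 6.45, 6.53 and 6.24 in Sel1l-/- mice 1 to 4, against 6.97, 7.53, 7.51 and 6.71 in WT mice 1 to 4. The groups met at a single point, with Sel1l-/- mouse 1 just above WT mouse 4. The means were 6.49 ± 0.20 in Sel1l-/- and 7.18 ± 0.41 in WT mice (SD, n = 4 each). The difference of -0.69, or a fold of 0.618 (standard error 0.19, 95% interval -1.14 to -0.25), did not pass the threshold (limma adjusted p = 0.134). The lowest limma adjusted p of the alternatives were 0.0616 with the mouse number as a block, 0.0557 with array weights and 0.0519 without WT mouse 4. It was 0.113 with arrays centred on their medians and 0.114 without the dimmest 25% of genes. Among the settings above 0.134 were the code number as a block (0.205), no moderation (0.260) and leaving out Sel1l-/- mouse 2 (0.276). With the code letter as a block the difference was -0.13. The Sel1l-/- mouse had the lower value in all 4 same-numbered pairs, with differences of -1.08 to -0.25. Its promoter is shown as that of the gene with the smallest p, chr1:150099781-150100080 on the plus strand of GRCm38.p6, with the cyclic AMP response motif on the opposite strand in capitals, at positions 13 to 18 after the annotated start.
Ptgs2: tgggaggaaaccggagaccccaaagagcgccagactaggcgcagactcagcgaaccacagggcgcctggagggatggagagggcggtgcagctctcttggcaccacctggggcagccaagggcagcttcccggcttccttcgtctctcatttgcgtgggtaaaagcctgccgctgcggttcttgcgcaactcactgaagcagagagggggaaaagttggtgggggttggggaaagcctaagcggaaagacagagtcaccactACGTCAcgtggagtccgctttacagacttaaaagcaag

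**Figure D2:**
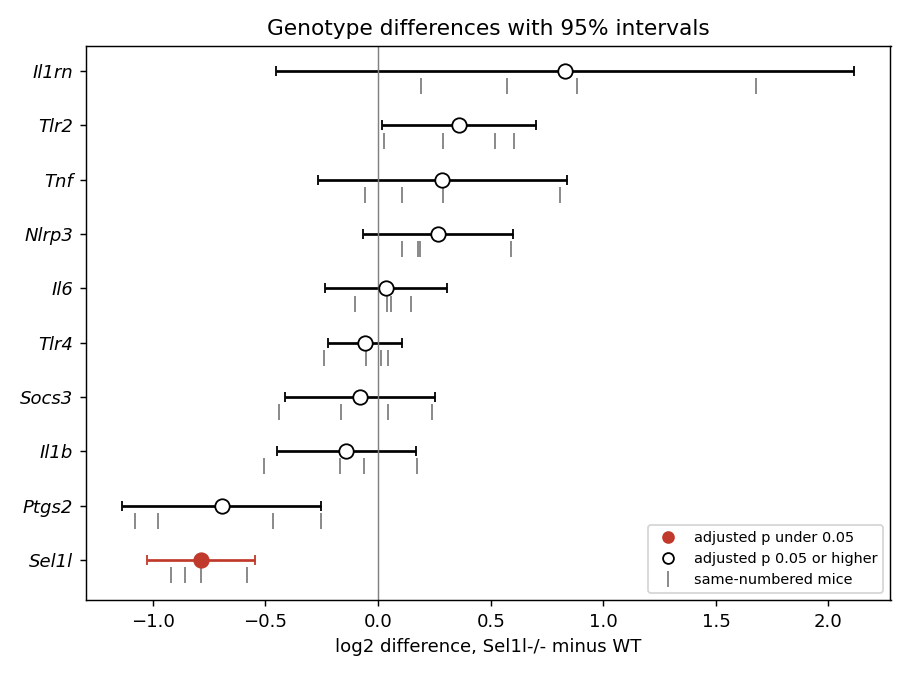
Log2 difference, Sel1l-/- minus WT (horizontal axis), of the 9 genes and of Sel1l, with 95% intervals from limma (n = 4 each) and the differences of the same-numbered mice as grey ticks below. Sel1l, at -0.79, is the one filled point, and the intervals of Tlr2 and Ptgs2 are the 2 of the 9 that do not reach 0 before adjustment.

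Il1rn, Nlrp3 and Tlr2 were higher in the Sel1l-/- mouse of all 4 same-numbered pairs, and Ptgs2 was lower in all 4. Of all genes, 14.7% were higher and 15.4% lower in all 4 pairs. Each mouse has a code in the labels, made of a letter and a number, and what they stand for is not stated. Letter E held only WT mice 1 to 3 and letter G only Sel1l-/- mice 3 and 4. Outside letter F, genotype and code letter therefore cannot be told apart. Within letter F, the one letter that held both genotypes (Sel1l-/- mice 1 and 2, WT mouse 4), the difference was -0.88 for Il1rn, -0.19 for Tnf, -0.16 for Nlrp3, 0.05 for Tlr2 and -0.13 for Ptgs2. Within the code numbers 5, 7 and 9, the difference of Il1rn was 0.48, 0.35 and 1.77, that of Tlr2 0.33, 0.08 and 0.62, and that of Ptgs2 -0.31, -1.05 and -1.06. The sign of Il1rn, Tnf and Nlrp3 thus turned within letter F, while that of Ptgs2 was negative within each group.

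Macrophage markers were the cell type list with the highest median difference, 0.39. Of its 12 measured genes 11 had positive differences (48.8% of all genes), but none of the 12 passed the threshold. The mean of the 12 was 9.84, 10.33, 10.25 and 10.75 in Sel1l-/- mice 1 to 4, against 9.58, 10.30, 9.59 and 10.41 in WT mice 1 to 4. Within letter F this mean was lower in Sel1l-/- mice 1 and 2 than in WT mouse 4. Sel1l-/- mouse 4 was highest for these markers, as it was for Il1rn, Tnf and Nlrp3, and WT mice 1 and 3 were lowest for all of them. Itgax, a marker of the macrophages that gather in obese fat, and Cd68, a lysosomal macrophage protein, were picked out after their values were seen and had differences of 0.97 (limma adjusted p = 0.572) and 0.50 (adjusted p = 0.496). The one marker with a negative difference was Lyz1 at -0.61 (limma adjusted p = 0.148), a lysozyme gene whose near-identical copy Lyz2 can share its probes. Lyz2 itself had 0.02 (limma adjusted p = 0.955), and Mrc1, the mannose receptor, had 0.36 (adjusted p = 0.400). The part of these markers in the values of the 9 genes was not tested. In RNA of whole tissue, fewer cells of a type and less RNA per cell cannot be told apart.

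**Figure D3:**
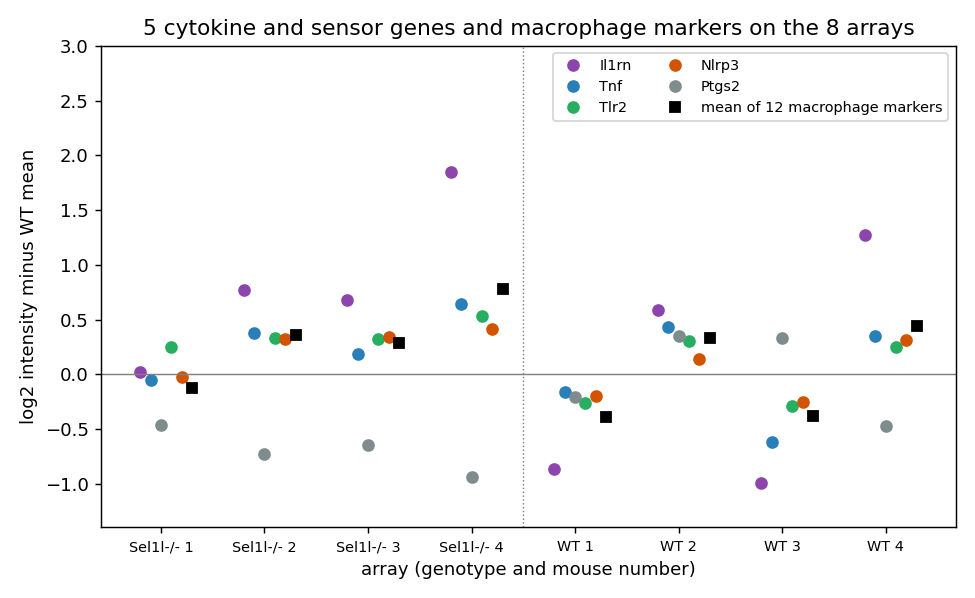
Log2 intensity minus the WT mean (vertical axis) of 5 of the 9 genes and of the mean of 12 macrophage markers (black squares) on each of the 8 arrays (horizontal axis). Il1rn, Tnf, Tlr2, Nlrp3 and the macrophage markers lie low in WT mice 1 and 3 and highest in Sel1l-/- mouse 4, where Ptgs2 is at its lowest.

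Markers of other cells stood as follows. Of 8 measured neutrophil and monocyte markers none passed (list means 5.24 to 5.61 in Sel1l-/- and 5.54 to 6.14 in WT mice), with Retnlg at -0.46 (limma adjusted p = 0.479) and S100a8, a calcium-binding protein of neutrophils, at -0.97 (adjusted p = 0.536). S100a8 read 8.35 in WT mouse 4, against 5.17 to 5.94 in the other WT mice, and its difference was -0.28 without that mouse and -3.41 with the code letter as a block (limma adjusted p = 0.0390). None of 6 mast cell markers passed, with Kit, the stem cell factor receptor, at -0.52 (limma adjusted p = 0.153) and Fcer1a at -0.13 (adjusted p = 0.786), and none of 9 lymphocyte markers, with Cd79b at -0.52 (adjusted p = 0.351) and Ms4a1 at -0.62 (adjusted p = 0.397). Of 8 endothelial markers Pecam1, an adhesion molecule of endothelial junctions, fell by 0.39 (limma adjusted p = 0.0290), a call lost without any 1 of the 8 arrays, with the code letter or number as a block and without moderation. All 8 endothelial markers had negative differences with an unadjusted limma p under 0.05 (15.0% of all genes), and 6 had no overlap between the genotypes (10.3% of all genes; list means 9.56 to 9.86 in Sel1l-/- and 10.06 to 10.15 in WT mice). None passed among 8 adipocyte markers (Adipoq at -0.56, limma adjusted p = 0.0753, and Cidec at -0.11, adjusted p = 0.430), 8 fibroblast markers (Cd34 at -0.27, adjusted p = 0.162, and Pi16 at -0.31, adjusted p = 0.300) or 6 mesothelial markers (Wt1 at -0.44, adjusted p = 0.108, and Lrrn4 at -0.35, adjusted p = 0.461). With the mouse number as a block, Kit (limma adjusted p = 0.0400), Cd79a (adjusted p = 0.0496), Adipoq (adjusted p = 0.0204), Wt1 (adjusted p = 0.0382) and the endothelial genes Tek (adjusted p = 0.0437) and Esam (adjusted p = 0.0282) also passed, all lower in Sel1l-/- mice. Cd79a, Tek, Esam and the sensor Nlrc4 are named for passing in that fit. The other markers named here had the smallest p of their lists. Differences were positive for 3 of the 9 lymphocyte markers (list median -0.10) and 2 of the 8 fibroblast markers (-0.05), against 48.8% of all genes. They were negative for all 8 adipocyte markers (list median -0.12) and all 6 mesothelial markers (-0.37). All 6 mast cell markers were also negative (list median -0.08, the smallest at -1.6e-05), as were 7 of the 8 neutrophil and monocyte markers (-0.10).

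The pathways around the 9 genes were followed in 8 lists with 110 measured genes of 117 listed. Over all 8 lists 1 gene rose and none fell, 0.909% against 1.72% of all genes, and 20 genes (18.2% against 15.0%) had an unadjusted limma p under 0.05. The genotypes did not overlap for 12 of the 110 genes, 10.9%, near the 10.3% of all genes. The gene that rose was Hsp90b1 (Grp94), the ER chaperone that Toll-like receptors need to fold. It averaged 12.36 ± 0.11 in Sel1l-/- and 11.52 ± 0.04 in WT mice (SD, n = 4 each), a difference of 0.84 (standard error 0.07, limma adjusted p = 0.00193), which kept its call in 20 of the 21 other settings. It is also one of the ER stress genes. With the mouse number as a block, 5 genes rose and 1 fell, against 3.85% of all genes. Those beside Hsp90b1 were Tlr1, the inflammasome sensor Nlrc4 (0.50, limma adjusted p = 0.0482), Hpgds (1.14, adjusted p = 0.0477) and Il10 (0.41, adjusted p = 0.0403), which were higher, and Ptgis (-0.56, adjusted p = 0.0221), which was lower. In the fit without the block the other 14 of 15 measured receptors and coreceptors did not pass, and the list median was 0.17.

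Downstream of the receptors, none of 12 measured adapters and kinases passed the threshold. The genotypes did not overlap for 4 of the 12 (10.3% of all genes), and 5 had an unadjusted limma p under 0.05 (15.0%). Tab1 and Tab3, which bind the kinase TAK1, had differences of 0.25 (limma adjusted p = 0.0982) and -0.52 (adjusted p = 0.171), without overlap between genotypes for either gene. None of 14 genes of NF-κB and its regulators passed. Nfkbia, the inhibitor IκBα and itself an NF-κB target, had a difference of -0.26 without overlap (limma adjusted p = 0.121), and Ikbkg, the scaffold of the IκB kinase, had 0.24 (adjusted p = 0.252).

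Among 17 measured cytokine receptors and JAK-STAT3 genes none passed. Jak1, a kinase of the interleukin-6 receptor complex, had a difference of 0.25 (limma adjusted p = 0.0850). Sigirr, a negative regulator of interleukin-1 and Toll-like receptor signalling, had -0.24 (limma adjusted p = 0.0858). The genotypes did not overlap for 4 of the 17, Jak1 and Sigirr among them (10.3% of all genes). None of 15 inflammasome partners passed. Il33, an alarmin of the interleukin-1 family, averaged 8.56 ± 0.18 in Sel1l-/- and 9.14 ± 0.22 in WT mice (SD, n = 4 each), a difference of -0.58 without overlap (limma adjusted p = 0.0661), and P2rx7, the ATP-gated channel that triggers NLRP3, had 0.48 (adjusted p = 0.405).

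None of the 7 other SOCS genes passed, with Socs2 at -0.27 (limma adjusted p = 0.396) and Socs1 at -0.22 (adjusted p = 0.416). None of 14 genes of prostaglandin synthesis and reception passed, and their median was -0.10 beside the -0.69 of Ptgs2. Ptgis, prostacyclin synthase, which uses the product of the cyclooxygenases, had a difference of -0.56 (limma adjusted p = 0.168), and Ptgfr, the receptor of prostaglandin F, had -0.65 (adjusted p = 0.203, and 0.0236 without WT mouse 4). The largest difference of the list, chosen after its value was seen, was 1.14 for Hpgds, a prostaglandin D synthase (limma adjusted p = 0.291). None of 16 other innate cytokines passed, with Il10, an anti-inflammatory cytokine, at 0.41 without overlap but dim, below the lower quartile on 6 of 8 arrays (limma adjusted p = 0.0794), and Csf1, the growth factor of macrophages, at 0.30 (adjusted p = 0.237).

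Stress genes of the ER were measured beside these as a readout of the deletion, and were already known to be higher in these arrays. Of 9 genes induced by XBP1 and ATF6, 6 rose, among them Derl3, a derlin of ER-associated degradation, by 3.43 (limma adjusted p = 0.000516), Pdia6, a disulfide isomerase, by 1.08 (adjusted p = 0.000516) and Hyou1, a chaperone, by 0.87 (adjusted p = 0.00618). Of 9 genes of the ATF4 and CHOP arm 5 rose, among them the pseudokinase Trib3 by 3.01 (limma adjusted p = 0.00334), Nupr1 by 0.87 (adjusted p = 0.00334), Ppp1r15a by 0.87 (adjusted p = 0.0148) and Atf4 by 0.72 (adjusted p = 0.0231). None fell in either list. The call of Atf4 held in 13 and that of Ppp1r15a in 15 of the 21 other settings, and those of the other 5 genes named here in 19 to 21. The median difference was 0.84 and 0.72 in these 2 lists and 0.03 for the 9 inflammatory genes.

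**Figure D4:**
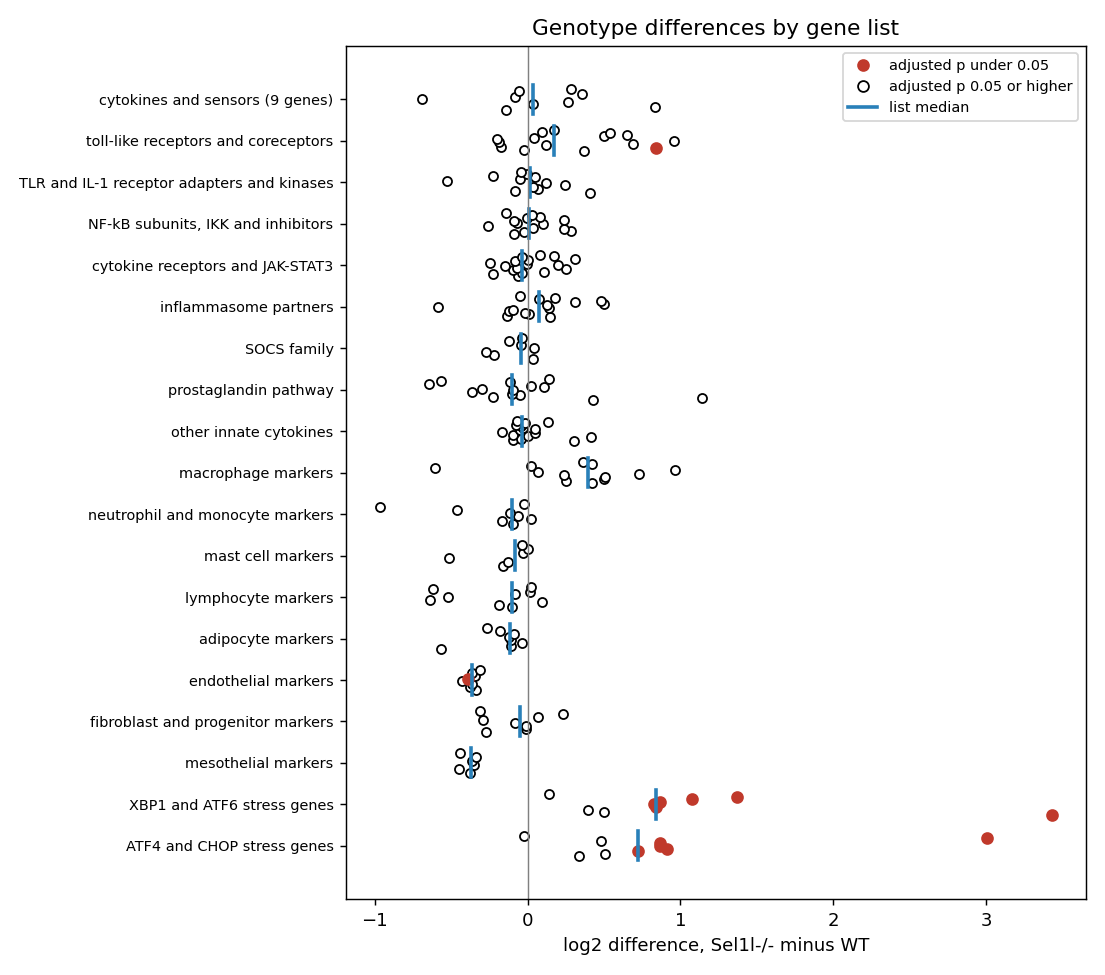
Log2 difference, Sel1l-/- minus WT (horizontal axis), of each measured gene by list, with filled red points for an adjusted p under 0.05 and a blue bar for the list median. The 9 cytokine and sensor genes hold no filled point, and the 2 stress lists at the bottom hold 6 and 5.

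For each of the 9 genes, the genes most like it were sought by Pearson's r over the 8 arrays among the other 18819 genes, which also share any effect of array quality. The values are descriptions, since the highest of so many is high by selection. Il1rn was closest to Igsf6, an immunoglobulin superfamily gene of myeloid cells, and to Il7r, the interleukin-7 receptor (both r = 0.997, and 0.994 on the 6 arrays left without the 2 farthest from the median of Il1rn). Tlr2 was closest to Ebi3, a subunit of interleukin-27 (r = 0.982), and Ms4a7, a macrophage membrane protein (r = 0.980), which were 0.819 and 0.994 on 6 arrays. Tnf was closest to Ostf1 (r = 0.991) and the replication factor Mcm2 (r = 0.984), and Nlrp3 to the linker histone H1f5 (r = 0.995) and Batf2 (r = 0.988). Ptgs2 was closest to Zc2hc1c (r = 0.982) and AU021092 (r = 0.971). For the other 4 genes the highest r was 0.965 to 0.969. None of the 10 genes named here passed the threshold between the genotypes, and their differences ran from -0.48 to 0.93.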

How the data were processed

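The deposited values are log2 intensities of 8 one-colour arrays. The authors made them with RMA, per the submitters' processing notes, which corrects background, normalizes by quantiles and summarizes probes. No version, annotation or filter is stated, and the values themselves show the log2 scale. RMA makes arrays alike and compresses differences of dim probe sets. Array medians were 6.10 to 6.14 in Sel1l-/- and 6.05 to 6.08 in WT mice. Of 35556 probe sets, 21218 carried 1 gene symbol in the platform annotation, 1881 several and 12457 none. The brightest probe set of each gene was kept, without a filter. The genotypes were compared in limma 3.58.1 (R 4.3.3, lmFit and eBayes, 2.60 prior degrees of freedom), two-sided, with p-values adjusted by Benjamini-Hochberg at 0.05, and the fit was tested on simulated data. Python 3.11.15, pandas 2.3.3, numpy 2.4.6 and matplotlib 3.10.9 made the tables and figures.

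The genes, lists, motifs and tests were chosen with earlier results of these data known. Named genes were the 9 genes, Sel1l, up to 4 genes past the threshold per list with the smallest p, or else the 2 with the smallest p, and the 2 genes most like each of the 9. Promoter windows are those of RefSeq, GRCm38.p6. Over all genes, each mouse's deviation from its group mean was correlated with those of the other genotype's mice. Pearson's r was 0.518, 0.107, 0.363 and 0.524 for mice of the same number. For mice of different numbers it ran from -0.489 to 0.328, and the pair numbered 2 lay within this range. The replicate numbers in the titles were treated as pairs in an alternative fit. This rests on the data, not on a label, and the calls of that fit come from the same data. Alternatives changed the scaling, moderation, array weights, blocks, filter on dim genes and probe set, or left out an array.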

Additional observations from a re-analysis of the deposited data

Results flagged for a closer look

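In 6 of the 102 groups of 4 arrays examined (51 genes, 2 genotypes), 1 array lay far from the other 3 by Dixon's test, and chance gives about 1 in 20. None of the 9 cytokine and sensor genes was among them. All 6 were WT arrays, and 5 of them were WT mouse 4. In that mouse Ikbkg read 8.35 (other WT mice 8.13 to 8.16), Hyou1 9.60 (9.47 to 9.49) and Retnlg 6.18 (5.47 to 5.55). In the same mouse Ptgfr read 6.04 (other WT mice 6.86 to 6.98) and Ms4a1 5.87 (6.66 to 6.81). Il10 read 4.09 in WT mouse 2, against 3.86 to 3.89 in the other WT mice.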

How the results depend on the processing

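The 9 genes had 181 fits over 21 alternatives, the replicate block included, since dim genes drop out where a filter is set, and none passed the threshold. Of these fits, 172 kept the sign and 9 turned it. With the code letter as a block, a fit that sets 2 Sel1l-/- mice against 1 WT mouse, the differences were -0.19 for Tnf, -0.26 for Il6, -0.88 for Il1rn, -0.16 for Nlrp3 and 0.029 for Socs3. Among other genes they were -0.16 for P2rx7, 0.15 for Socs1, 0.017 for Cd79b, 0.42 for Ms4a1, 0.037 for Pi16, 0.020 for Lrrn4, -0.093 for Tlr1, -0.33 for Tlr6, -0.33 for Cd68 and -0.87 for Itgax. Il6 was -0.0074 with arrays centred. Without 1 array, Il6 ran from -0.056 (without Sel1l-/- 4) to 0.12, and Socs3 from -0.17 to 0.039 (without Sel1l-/- 3). Tlr2, Tlr4, Il1b and Ptgs2 kept their sign in each fit. Over all genes, the counts higher and lower were 358 and 367 with the replicate block, 347 and 219 with array weights, 87 and 37 without moderation, 7 and 13 with the letter block, 8 and 3 with the number block, and 119 and 154 with arrays centred, which turned the balance of the calls. Without 1 array they ran from 66 to 244 higher and from 31 to 140 lower, above the counts of all 8 arrays only for the higher genes without Sel1l-/- 4 and the lower genes without WT 4. The cause was not tested. Of 42 other genes followed through these settings, 9 lost a call in at least 1 fit and 13 gained one. Nlrc4, Hpgds, Cd79a, Tek and Esam, which passed with the replicate block, were not among the 42. The gains beside those of the replicate block and S100a8 were Tab1, Sigirr, Jak1, Il33 and Adipoq with array weights, Jak1, Il33 and Adipoq without the dimmer 50% of genes, Il33 without WT 3, and Ptgfr and Cd34 without WT 4. Low signal limits what can be read for Il6, and Nlrp3 was also dim.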
